A study of Saccharomyces cerevisiae with 75 samples.

Results

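The npl3Δ and upf1Δ single deletion strains of Saccharomyces cerevisiae were set against each other on the same arrays, with no wild type in either channel. Arrays were chosen by their titles, which pair the npl3 deletion alone with the upf1 deletion alone. These were 4 of the 75 arrays of the series. After 15 min at 37 °C, 1 extract pair was hybridised on 2 dye-flipped arrays, and 1 extract pair at 30 °C, for which the labels give no time, was treated in the same way. The npl3Δ strain lacks NPL3 and the upf1Δ strain lacks the gene of Upf1, which the probe annotation lists as NAM7. The labels state the deletion, the temperature and the time of each extract, and they give neither the strain background nor the mating type. All values are log2 ratios of npl3Δ over upf1Δ, so a value above 0 means more RNA in npl3Δ. The table does not state the direction of its ratios. It was read from the values and the probes of the deleted genes, by which the 30 °C arrays held upf1Δ over npl3Δ and were turned. Nothing in the labels says that the 2 extract pairs stand for more than 1 culture of each strain at each temperature. A p-value here therefore rests mainly on the spread between extract pairs of other comparisons, which may be partly technical. The groups with several pairs held strains lacking NPL3, GBP2, HRB1 or both of the latter, over wild type. None of them held upf1Δ, so its own spread between extracts was not measured.

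Npl3 is an RNA-binding protein with arginine and glycine repeats, related to the SR proteins of animals, and it joins messenger RNA as it is transcribed and accompanies it to the cytoplasm. Upf1 is the RNA helicase of nonsense-mediated decay, the pathway that destroys messenger RNAs whose translation ends too early. An unspliced precursor that escapes to the cytoplasm usually carries an early stop codon, so part of what is seen of poor splicing depends on how well decay works. The direct comparison therefore sets a strain that lacks an SR-like protein against a strain that lacks a decay step acting on some unspliced RNAs.

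Each array carried 1536 probes at 6 spots each. For 230 genes, 98 of them for ribosomal proteins, 3 probes are laid out in a set order on the print, called here the first, the second and the third probe. The difference between the second and the third probe is called the probe contrast. The sources used here do not say what each probe matches in its transcript, so a contrast shows only that the probes of one gene changed unequally. The arrays report relative RNA, and the signal intensity behind each ratio is unknown.

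The arrays of a pair resembled each other weakly. Over the 1536 probes, the correlation of the 2 dye-flipped arrays was 0.184 at 37 °C and -0.0524 at 30 °C. The points share extracts and probes, so these values are descriptions only. At 37 °C, 377 probes lay above 0 on both arrays, 367 below 0 on both and 792 had opposite signs, and at 30 °C these counts were 349, 366 and 821. Across temperatures, the arrays with npl3Δ in Cy5 correlated at 0.668 and those with upf1Δ in Cy5 at 0.0676. The arrays joined here share their dye orientation, so a dye effect of a probe would enter both with the same sign. Its part in these values was not tested. The 30 °C array with upf1Δ in Cy5 stood apart from the other arrays of the series. The SD between spots carrying one probe had a median of 0.781 there, against 0.123 to 0.452 on the 71 arrays of other comparisons. The medians of its 24 spot columns ran from -1.28 in the first column to 0.909 in the last, a range of 2.25 between the lowest and the highest, against 0.139 to 1.11 on those 71 arrays. Centring each column on its median lowered the spot SD of that array to 0.268, while the correlation of the 30 °C pair became 0.0052. Direct ratios of single genes are therefore given for each array, with npl3Δ in Cy5 first and upf1Δ in Cy5 second.

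**Figure D1:**
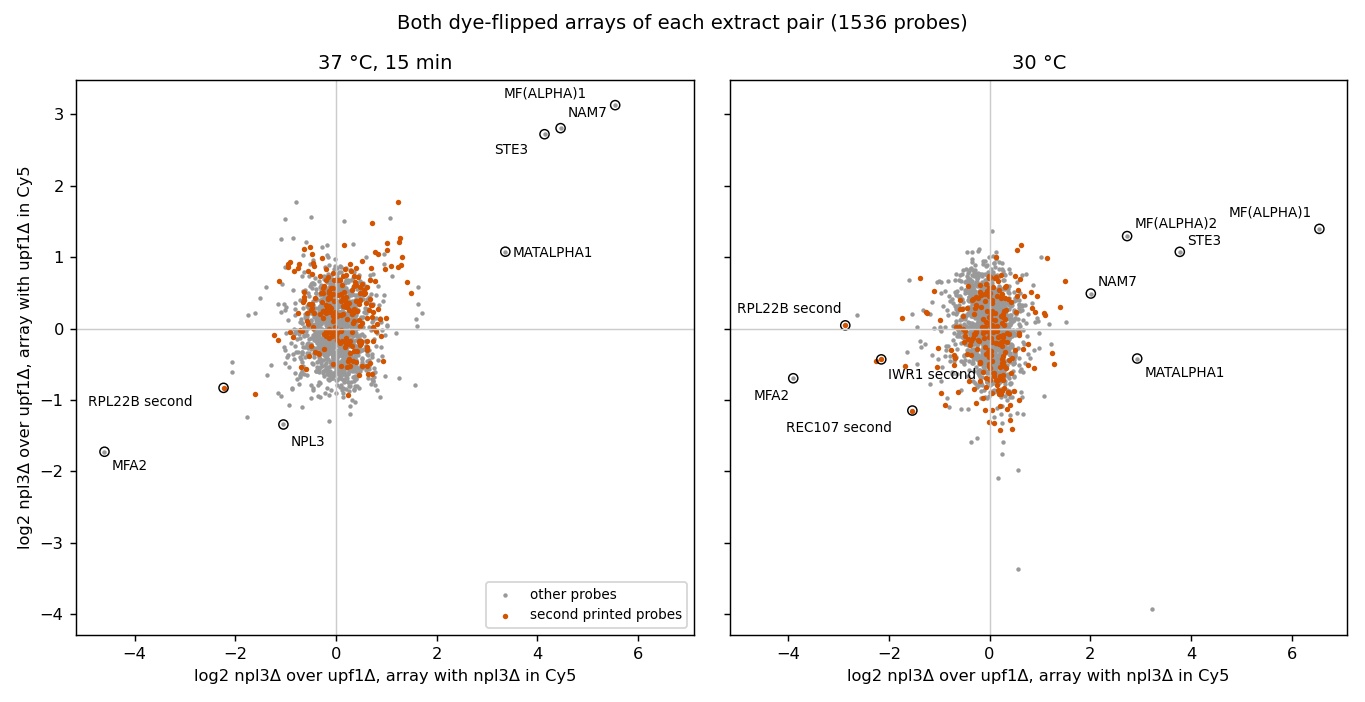
Log2 ratio of npl3Δ over upf1Δ for each of 1536 probes on the array with npl3Δ in Cy5 (x axis) and on the array with upf1Δ in Cy5 (y axis), at 37 °C after 15 min and at 30 °C. The correlation over probes was 0.184 at 37 °C and -0.0524 at 30 °C, and NAM7 and MF(ALPHA)1 lay far above 0 on both axes at 37 °C.

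**Figure D2:**
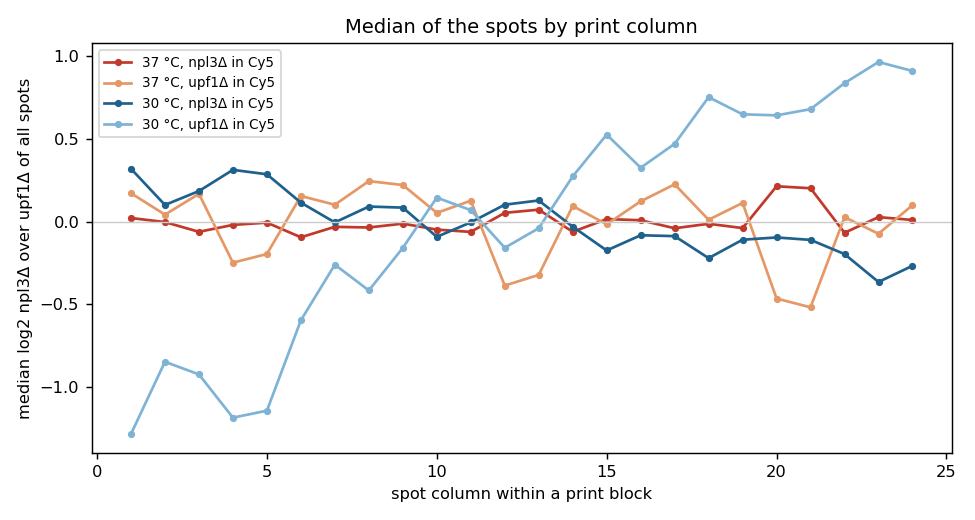
Median log2 ratio of npl3Δ over upf1Δ in each of the 24 spot columns of the 4 arrays. The 30 °C array with upf1Δ in Cy5 runs from -1.28 in the first column to 0.909 in the last, a wider span than the other 3 arrays show.

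The probes of the deleted genes gave the direction of the ratios. NAM7 had 4.46 and 2.81 at 37 °C and 2.01 and 0.49 at 30 °C, above 0 on all 4 arrays. The gene is absent from upf1Δ, so its ratio is taken over the background of each array and gives no fold. At 37 °C its mean log2 ratio was 3.63 ± 0.30 (SE, 1 extract pair), and it was the only probe that limma called there, 1 of 1536 (0.0651%). At 30 °C its mean was 1.25 ± 0.30, not called. Since these probes also set the direction, their calls are a description and not a result about the strains. NPL3 had -1.04 and -1.34 at 37 °C and -1.29 and -0.22 at 30 °C, below 0 on all 4 arrays. Its mean of -1.19 ± 0.73 at 37 °C did not pass the test (limma, adjusted p = 0.997). The spread of this probe was set in part by the third of 7 extract pairs of npl3Δ over wild type at 30 °C, in which NPL3 had 1.47, against its label. Without that pair the limma adjusted p of NPL3 at 37 °C was 0.0249, and 5 probes were called at that temperature. Since the NPL3 value of that pair goes against its label, the lower p of NPL3 follows in part from leaving the pair out. The other SR-like genes, GBP2 and HRB1 for a pair of shuttling mRNA-binding proteins, did not pass the test in either comparison. GBP2 had -0.21 and 0.17 at 37 °C and -0.44 and 0.50 at 30 °C, with opposite signs in each pair. HRB1 had -0.46 and -0.86 at 37 °C and -0.70 and -0.41 at 30 °C, below 0 on all 4 arrays.

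Few probes passed the direct test. The SE of a probe had a median of 0.285, and at an unadjusted p under 0.05 limma gave 60 probes at 37 °C, 21 higher and 39 lower, and 67 probes at 30 °C, 16 higher and 51 lower. As a description that uses no test, probes past 1.5-fold in the same direction on both arrays were counted. At 37 °C these were 30 higher (1.95% of 1536) and 22 lower (1.43%), beside 35 past 1.5-fold in opposite directions. At 30 °C they were 11 higher (0.716%) and 12 lower (0.781%), beside 17 in opposite directions. A joint estimate was also made, in which each strain and condition has 1 coefficient against wild type, so that the paths through wild type and through the npl3Δ upf1Δ double deletion add to the direct arrays. At 30 °C no array set upf1Δ against wild type. There, every indirect path to upf1Δ ran through 1 extract pair of the double deletion over upf1Δ. By the joint estimate 18 probes were called at 37 °C (1.17%), 6 higher and 12 lower, and 22 at 30 °C (1.43%), 2 higher and 20 lower.

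Only 5 genes whose RNA is reported as a target of nonsense-mediated decay were measured. Where a test called a probe of these, the probe was lower in npl3Δ than in upf1Δ. RPL28, formerly CYH2, encodes a protein of the large ribosomal subunit, and its unspliced precursor is the classic yeast substrate of this decay. Its second probe had -1.60 and -0.92 at 37 °C and -2.25 and -0.45 at 30 °C. All 4 arrays had more of the RNA in upf1Δ. The direct test did not call it (limma, adjusted p = 0.745 at 37 °C and 0.404 at 30 °C). The joint estimate gave -1.44 ± 0.32 at 37 °C (limma, adjusted p = 0.0183) and -1.76 ± 0.33 at 30 °C (adjusted p = 0.00234). The third probe of the same gene behaved differently between temperatures. It had -1.09 and -0.95 at 37 °C, both arrays lower in npl3Δ, and 0.54 and -0.02 at 30 °C. Ratios over wild type came from other arrays, and whether they used the same extracts is not stated. On those, the RPL28 second probe had 0.38 and 0.45 in the 2 extract pairs of npl3Δ over wild type after 15 min at 37 °C, and 2.17 in the 1 pair of upf1Δ over wild type at the same time.

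RPL22B, which encodes another protein of the large subunit and belongs to the genes whose introns are widely studied, had the lowest mean direct ratio of all ribosomal protein gene probes at both temperatures, in its second probe. Its second probe had -2.23 and -0.83 at 37 °C and -2.86 and 0.04 at 30 °C, so that 3 of 4 arrays were below 0. Its first probe had -2.07 and -0.47 at 37 °C and -2.63 and 0.18 at 30 °C, while the third had -0.24 and 0.53 at 37 °C. The second and the first probe were called lower by the joint estimate at both temperatures, at -1.58 ± 0.33 and -1.44 ± 0.28 at 37 °C and at -1.85 ± 0.34 and -1.31 ± 0.29 at 30 °C. Against wild type after 15 min at 37 °C, the second probe had 0.48 and -0.08 in npl3Δ and 1.83 in upf1Δ.

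REC107, a meiotic recombination gene whose intron is removed inefficiently in vegetative cells, gave 1 of the 2 called probes of the direct comparison at 30 °C (0.13% of 1536). Its second probe had -1.53 and -1.15 at 30 °C, and it fell by 1.34 ± 0.25 in npl3Δ relative to upf1Δ (SE, limma, adjusted p = 0.0171). At 37 °C the same probe had -1.13 and 0.66, with opposite signs. The other called probe was the second probe of IWR1, which encodes a factor for nuclear import of RNA polymerase II. It had -2.15 and -0.43 at 30 °C, where it fell by 1.29 ± 0.21 (limma, adjusted p = 0.00632), against -0.64 and 0.45 at 37 °C. On the 30 °C array with upf1Δ in Cy5 alone it was not called (limma, adjusted p = 0.265).

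**Figure D3:**
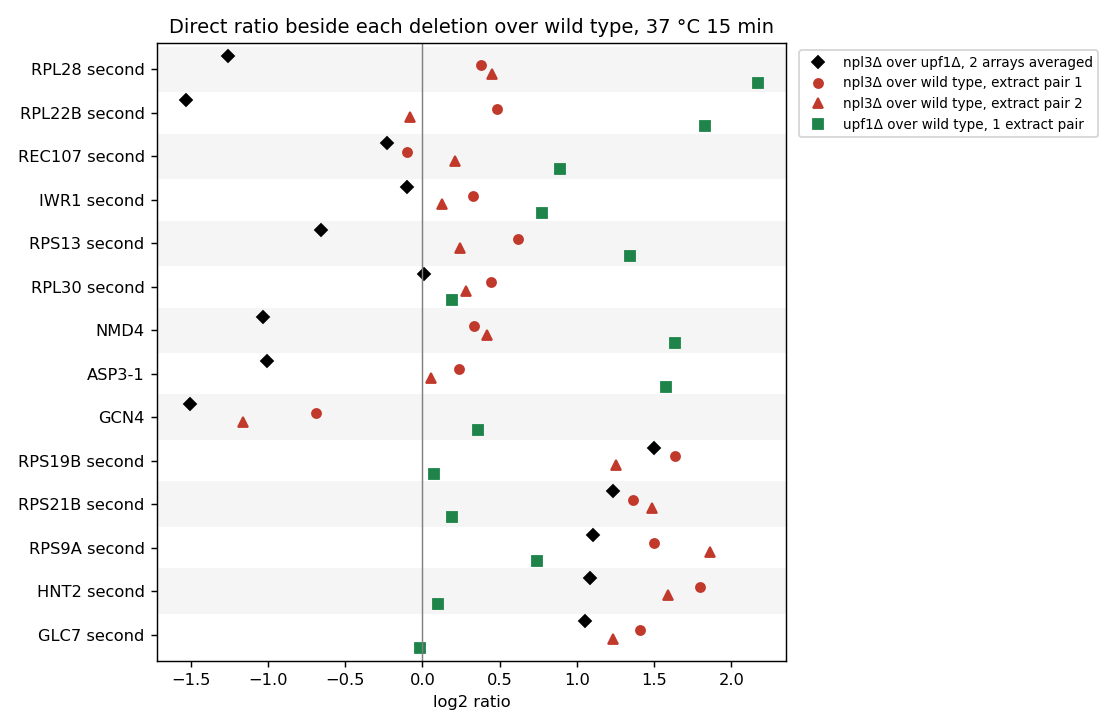
Log2 ratios of selected probes after 15 min at 37 °C, as the mean of the 2 direct arrays of npl3Δ over upf1Δ, in each of 2 extract pairs of npl3Δ over wild type and in 1 pair of upf1Δ over wild type. The second probes of RPL28 and RPL22B and the probe of NMD4 lie below 0 in the direct comparison and above 0 in upf1Δ over wild type, while the second probe of RPS19B lies above 0 in npl3Δ over wild type.

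NMD4 and ASP3-1 had similar signs. The joint estimate at 37 °C also uses the arrays of upf1Δ over wild type. For an RNA picked as high there, a lower joint value follows in part from that choice. NMD4 encodes a partner of Upf1, and its probe had -1.16 and -0.91 at 37 °C and -1.44 and 0.03 at 30 °C, against 1.64 in upf1Δ over wild type. The joint estimate did not call it (limma, adjusted p = 0.0889 at 37 °C and 0.109 at 30 °C). ASP3-1, for a cell-wall asparaginase, had -0.93 and -1.08 at 37 °C and -0.63 and -0.02 at 30 °C, and the joint estimate at 37 °C was -1.18 ± 0.19 (limma, adjusted p = 0.000869). The list of reported decay substrates held 14 genes, of which 5 were measured with 9 probes. RPL28 and REC107 had 3 probes each, so counts of these probes are not counts of genes. At 37 °C, 0 of the 9 lay above 0 on both arrays and 6 lay below 0 on both, with a median of -0.23 against -0.01 over all 1536 probes. At 30 °C, 0 of the 9 lay above 0 and 5 below 0 on both, with a median of -0.28 against -0.01. Of the 1536 probes, 377 lay above and 367 below 0 on both arrays at 37 °C, and 349 and 366 at 30 °C. The direct test called 1 of the 9 lower at 30 °C, the second probe of REC107, and 0 at 37 °C. PPR1, for a regulator of pyrimidine synthesis, had -0.12 and -0.20 at 37 °C and -0.10 and -0.32 at 30 °C. SPL2, of the phosphate response, had -0.23 and -0.18 at 37 °C and -0.30 and -0.39 at 30 °C. EST2, the catalytic subunit of telomerase, had -0.67 and 0.73 at 37 °C and 0.40 and -0.97 at 30 °C, with opposite signs in each pair.

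At 30 °C the joint estimate called 13 second probes among its 20 lower probes, although second probes are 230 of the 1536. The direct arrays at 30 °C showed no such shift, with 55 of the 230 above 0 and 59 below 0 on both. The median probe contrast of ribosomal protein genes was -0.02 on the direct arrays and -0.318 jointly. It was -0.692 by the joint estimate without the direct arrays. Among the 13, PRE3, for a catalytic subunit of the proteasome, had -0.89 and -1.07 at 30 °C and a joint estimate of -1.17 ± 0.16. RPS13, for a protein of the small ribosomal subunit, had -1.73 and 0.15 at 30 °C, so the arrays had opposite signs, and a joint estimate of -1.13 ± 0.25. RPL30, whose protein binds its own precursor and holds back its splicing, had -1.68 and -0.53 at 30 °C against -0.91 and 0.93 at 37 °C. The second probes of RPL27B, RPS26A, RPL37A, TAF14, APS3 and HMRA1 were also called lower, with joint estimates between -0.90 for HMRA1 and -0.59 for RPL37A. HAP5, PML1, POP3 and RRP8, which are measured by single probes, were called lower by the joint estimate at 30 °C as well. HAP5 encodes a subunit of the CCAAT-binding complex, and it had -0.71 and -0.68 at 37 °C and -0.75 and -0.64 at 30 °C, nearly the same on all 4 arrays. PML1, for a subunit of the RES complex that retains unspliced RNA in the nucleus, had -0.32 and -0.23 at 37 °C and -0.85 and -0.97 at 30 °C.

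Second probes of ribosomal protein genes made up 14 of the 30 probes past 1.5-fold higher in npl3Δ on both arrays at 37 °C. Of the 98 second probes of ribosomal protein genes, 55 lay above 0 on both arrays and 9 below 0 on both. Their medians were 0.35 and 0.29 on the 2 arrays, against medians of -0.04 and 0.09 for the first probes and -0.005 and 0.13 for the third probes of the same genes. For the 132 other genes, the second probes had medians of -0.04 and 0.23, so the 2 arrays disagreed there. Of these 132 second probes, 35 lay above 0 and 18 below 0 on both arrays. Of the 30 higher probes, 17 were second probes of any gene, 1 was a first probe, 1 was the third probe of its gene, and the others lay outside the ordered set. The 22 lower ones were composed otherwise, with 2 second probes and 17 named probes outside the ordered set, where 767 of the 1536 probes lie. At 30 °C the second probes of ribosomal protein genes had medians of 0.03 and 0.20, and 35 lay above 0 and 16 below 0 on both arrays. For the other genes these counts were 20 and 43. The third probes of these genes had medians of -0.24 and 0.35 at 30 °C, of opposite sign.

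**Figure D4:**
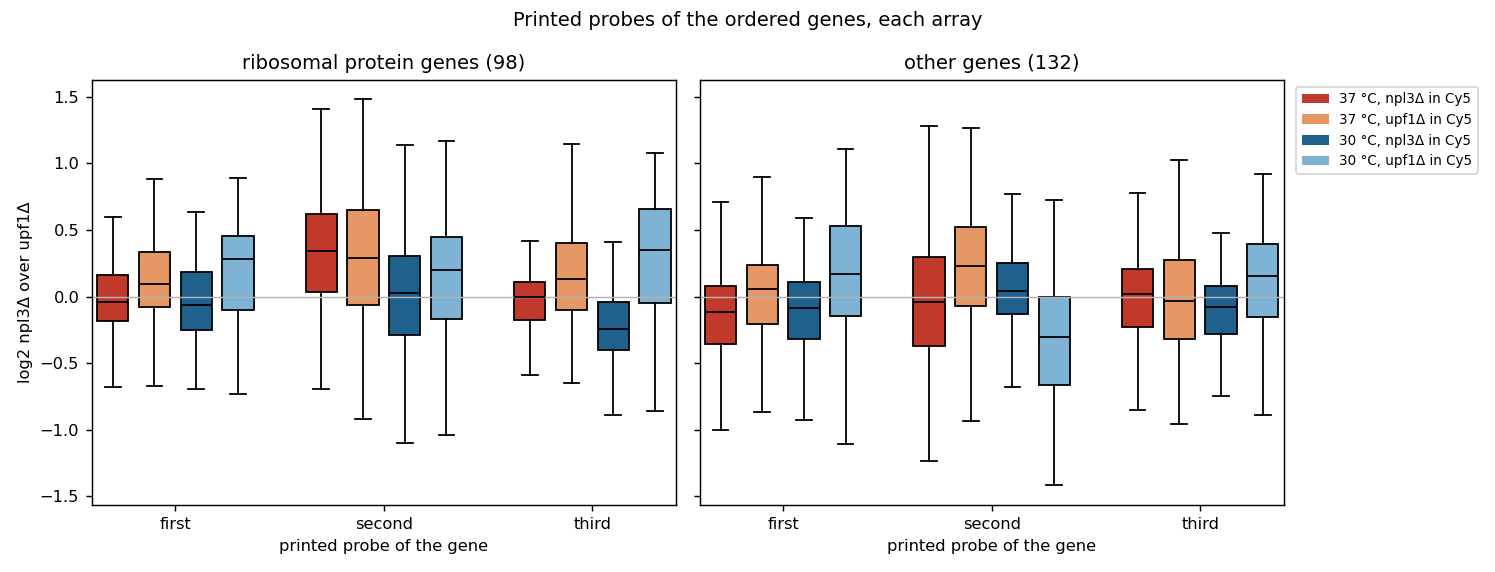
Log2 ratio of npl3Δ over upf1Δ by printed probe, for 98 ribosomal protein genes and 132 other genes, on each of the 4 arrays (box, quartiles and median; whiskers, farthest values within 1.5 interquartile ranges; values beyond them not drawn). Second probes of ribosomal protein genes have medians of 0.35 and 0.29 at 37 °C, and at 30 °C their medians are 0.03 and 0.20.

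The probes described next were picked for values past 1.5-fold on both arrays at 37 °C, so that their arrays match there follows from the choice. The second probe of RPS19B, for a protein of the small subunit, had 1.23 and 1.77 at 37 °C and 1.14 and 0.98 at 30 °C, above 0 on all 4 arrays. That of RPS21B, also of the small subunit, had 1.25 and 1.22 at 37 °C, against 1.28 and -0.50 at 30 °C. That of YBR219C, a gene of no known function, had 1.27 and 1.27 at 37 °C and 0.67 and -0.29 at 30 °C. None of these passed the direct test (limma, adjusted p = 0.997 each at 37 °C). In npl3Δ over wild type after 15 min at 37 °C, the 2 extract pairs gave RPS19B 1.64 and 1.25 and RPS21B 1.37 and 1.49. In upf1Δ over wild type at that time, RPS19B had 0.08 and RPS21B had 0.19. Further second probes past 1.5-fold on both arrays at 37 °C included RPS9A with 1.02 and 1.19, RPS14B with 1.02 and 1.10 and RPS18B with 1.10 and 0.88. Outside the ribosome, HNT2, for a hydrolase of dinucleoside polyphosphates, had 1.28 and 0.88. GLC7, the catalytic subunit of protein phosphatase 1, had 1.24 and 0.87. Both were also high in npl3Δ over wild type, where HNT2 had 1.80 and 1.59 and GLC7 had 1.41 and 1.23.

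Probe contrasts set the second probe against the third of the same gene. At 37 °C limma called 0 of 230 contrasts (0%), with 5 at an unadjusted p under 0.05, 4 higher and 1 lower. Past 1.5-fold on both arrays were 10 higher contrasts (4.35%) and 1 lower contrast (0.435%), beside 24 past 1.5-fold in opposite directions. Over the 230 contrasts the 2 arrays correlated at -0.155, a description over genes that share extracts. RPS21B had contrasts of 1.28 and 1.59, RPS19B of 1.23 and 1.37 and RPS9A of 1.24 and 0.89. STO1, for the large subunit of the nuclear cap-binding complex, had 0.97 and 0.99, RPS0B had 0.94 and 0.90, and LSM2, a subunit of the Lsm ring on U6 RNA, had 0.86 and 0.87. The lower contrast was that of RPL22B, at -1.99 and -1.36. Over the 98 ribosomal protein genes the contrast had medians of 0.31 and 0.15 on the 2 arrays, with 48 above 0 and 11 below 0 on both. The other 132 genes had medians of -0.03 and 0.27, with 37 above 0 and 16 below 0 on both. Over all 230 contrasts these counts were 85 and 27. The ribosomal median was 0.59 in npl3Δ over wild type and 0.14 in upf1Δ over wild type after the same time at 37 °C.

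At 30 °C both called contrasts were lower in npl3Δ, while the counts past 1.5-fold were equal in both directions. Limma called 2 of 230 (0.87%), both lower, beside 14 at an unadjusted p under 0.05, 3 higher and 11 lower. The called contrasts were IWR1, with -2.23 and -1.36 and a mean of -1.79 ± 0.39 (adjusted p = 0.036), and RPL28, with -2.79 and -0.43 and a mean of -1.61 ± 0.38 (adjusted p = 0.0436). The RPL28 contrast was not called from medians of spots (limma, adjusted p = 0.114) or on the array with upf1Δ in Cy5 alone (adjusted p = 0.566). Past 1.5-fold on both arrays were 6 higher contrasts (2.61%) and 6 lower contrasts (2.61%), beside 18 in opposite directions, and the correlation over contrasts was 0.0639. The lower ones included REC107 at -1.31 and -1.34, RPL30 at -1.372 and -1.316 and RPL22B at -2.30 and -0.63. The higher ones included RPS19B at 1.18 and 1.09, RPS11A at 1.06 and 1.19 and YOS1, a gene of vesicle transport, at 0.86 and 0.88. The ribosomal medians were 0.15 and -0.11, of opposite sign on the 2 arrays. With the spot columns centred, a setting chosen after seeing the data, the ribosomal median of the pair was 0.03 at 30 °C and 0.22 at 37 °C. By the joint estimate 8 contrasts were called at 30 °C (3.48%), all lower, namely RPL22B, RPL28, IWR1, REC107, RPL27B, PRE3, RPL43B and RPL37A, with 27 at an unadjusted p under 0.05, 2 higher and 25 lower. At 37 °C it called 0 (0%), with 15 at an unadjusted p under 0.05 in limma, 13 higher and 2 lower.

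Genes used as textbook examples of yeast introns lay on both sides of 0. Of 15 such genes, 14 were measured with 43 probes, and at 37 °C 16 probes lay above 0 and 12 below 0 on both arrays. Over all 1536 probes these counts were 377 and 367. Their ends were the second probes of RPS14B, with a mean of 1.06 ± 0.87, and of RPL22B, with -1.53 ± 0.45. The second probe of ACT1, the actin gene, had 0.61 and 0.58 at 37 °C, and 0.34 and -0.06 at 30 °C. That of YRA1, an mRNA export factor that limits its own splicing, had 0.45 and -0.19 at 37 °C. That of TUB1, for alpha-tubulin, had -0.49 and -0.24 at 37 °C, and that of TUB3, for the other alpha-tubulin, 0.13 and -0.17. DBP2, for an RNA helicase, had 0.25 and 0.26 at 37 °C and 0.50 and 0.73 at 30 °C in its second probe.

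Genes of mating type gave some of the largest ratios. MF(ALPHA)1 encodes the alpha-factor pheromone that alpha cells secrete, and it had 5.54 and 3.13 at 37 °C and 6.55 and 1.40 at 30 °C. STE3, the receptor that alpha cells use to sense a-factor, had 4.14 and 2.72 at 37 °C and 3.78 and 1.07 at 30 °C. MFA2, which encodes a-factor of a cells, had -4.60 and -1.73 at 37 °C and -3.90 and -0.70 at 30 °C. All 3 kept their sign on all 4 arrays. None passed the direct test (limma, adjusted p = 0.753 for MF(ALPHA)1, 0.745 for STE3 and 0.0538 for MFA2 at 37 °C). MFA2 was called at 37 °C in the direct test without the third pair of npl3Δ over wild type at 30 °C (limma, adjusted p = 0.0249), from medians of spots (0.0272) and with spot columns centred (0.0454), and over all alternatives tried its adjusted p lay between 0.000129 and 0.483. The joint estimate at 37 °C called MF(ALPHA)1 at 4.74 ± 1.06, STE3 at 3.54 ± 0.80 and MFA2 at -3.48 ± 0.49 (limma, adjusted p = 0.0183, 0.0183 and 0.000129). At 30 °C it called MF(ALPHA)1 and MFA2, and gave STE3 2.67 ± 0.82 (limma, adjusted p = 0.109).

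Not all other genes of the list had the same sign on both arrays of a pair, and none of those given here was called by the direct test. MFA1, the second a-factor gene, had -2.06 and -0.61 at 37 °C and -1.65 and -0.32 at 30 °C. MF(ALPHA)2, the second alpha-factor gene, had 0.98 and -0.08 at 37 °C and 2.73 and 1.29 at 30 °C. MATALPHA1, the activator of alpha-specific genes, was added after its values had been seen, and it had 3.36 and 1.08 at 37 °C and 2.93 and -0.42 at 30 °C. Genes of the pheromone response that both mating types use were measured too. FUS3, a kinase of that pathway, had 1.64 and 0.34 at 37 °C, and STE12, its transcription factor, had 0.84 and 0.60. KAR4, a transcription factor needed for nuclear fusion, had 1.26 and -0.70 at 37 °C, past 1.5-fold in opposite directions, and 1.51 and 0.09 at 30 °C. Against wild type after 15 min at 37 °C, MF(ALPHA)1 had 0.91 and 1.79 in npl3Δ and -3.92 in upf1Δ, while MFA2 had 0.06 and -0.15 in npl3Δ and 3.90 in upf1Δ. In the double deletion over npl3Δ, MF(ALPHA)1 had -4.53 at 37 °C and -5.57 at 30 °C, and in the double deletion over upf1Δ at 30 °C it had -0.01. The labels give no mating type, so a difference in mating type between the strains and an effect of the deletions cannot be told apart.

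**Figure D5:**
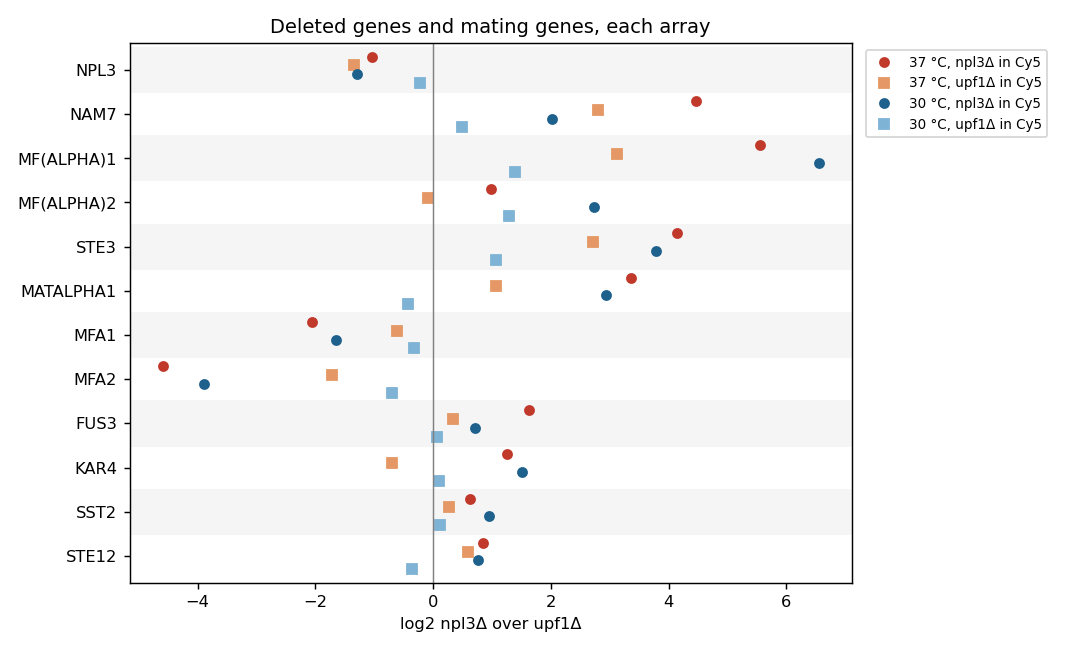
Log2 ratio of npl3Δ over upf1Δ for NPL3, NAM7 and genes of mating type on the 4 arrays. MF(ALPHA)1, STE3 and NAM7 lie above 0 and MFA2, MFA1 and NPL3 below 0 on all 4 arrays, with the values of the 30 °C array with upf1Δ in Cy5 nearest to 0 for most of them.

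GCN4 encodes the activator of amino acid biosynthesis genes and is controlled by upstream reading frames in its leader. It had -1.76 and -1.24 at 37 °C and -1.374 and -0.18 at 30 °C, below 0 on all 4 arrays. The joint estimate called it at 37 °C, at -1.41 ± 0.36 (limma, adjusted p = 0.0459), and it had -0.69 and -1.16 in npl3Δ over wild type after 15 min at 37 °C. The list counts that follow stand beside those over all 1536 probes. Of these, 377 lay above and 367 below 0 on both arrays at 37 °C, and 349 and 366 at 30 °C. All 3 measured genes of amino acid control lay below 0 on both arrays at 37 °C, and HIS4, for an enzyme of histidine synthesis, had -0.10 and -0.18. Chaperones and heat-shock genes were below 0 on both arrays for 6 of 10 probes at 37 °C and above for 0, with a median of -0.34, and the lowest was SSA1, a cytosolic Hsp70, with -0.57 and -0.39. At 30 °C 3 of these 10 probes were above 0 and 1 below 0 on both arrays, with a median of 0.10. Genes of the exosome and nuclear decay had 8 of 17 probes above 0 and 0 below 0 on both arrays at 37 °C, with a median of 0.19, and 6 above and 4 below at 30 °C. Of 93 probes for the spliceosome, 13 lay above and 30 below 0 on both arrays at 37 °C, with a median of -0.04. The lowest at 37 °C was AAR2, a factor for assembly of the U5 particle, with -0.87 and -0.85 at 37 °C and -0.43 and -0.17 at 30 °C. Genes of the respiratory chain had 7 of 13 probes above 0 and 1 below 0 on both arrays at 37 °C, with a median of 0.26, against 3 above and 5 below at 30 °C, with a median of -0.14. Meiotic genes with introns had 4 of 28 probes above 0 and 13 below 0 on both arrays at 30 °C, with a median of -0.23, and among them HFM1, for a meiotic helicase, had -0.81 and -1.11 in its first probe. At 37 °C 1 of the 28 lay above 0 and 3 below 0 on both arrays, with a median of -0.05. Ribosome biogenesis genes had medians of 0.06 at 37 °C and 0.11 at 30 °C over 29 probes. Apart from REC107, no member of these lists passed the direct test.

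Between temperatures, the direct ratio was compared as 37 °C minus 30 °C. Limma called 1 of 1536 probes (0.0651%), NAM7, whose ratio over the background of upf1Δ was higher by 2.38 ± 0.42 at 37 °C (0 probes were called with a trended, robust variance), and 0 of 230 contrasts (0%), with 29 probes and 7 contrasts at an unadjusted p under 0.05. All 29 probes but 3 were higher at 37 °C. By the joint estimate 3 probes (0.195%) and 2 contrasts (0.87%) differed. The probes were NAM7, at 2.47 ± 0.39, the second probe of IWR1, at 1.24 ± 0.23 (adjusted p = 0.0124), and the third probe of RPL28, at -1.31 ± 0.26 (adjusted p = 0.0175). The contrasts were those of IWR1, at 1.82 ± 0.39, and RPL28, at 1.62 ± 0.40. The second probe of RPL28 differed between temperatures by 0.31 ± 0.46 (limma, adjusted p = 1). Only 1 extract pair stands behind each temperature of the direct comparison, so extract and temperature cannot be told apart there.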

How the data were processed

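Per the labels, cDNA for labelling in Cy5 or Cy3 was made with aminoallyl dUTP from acid-phenol extracts of total RNA. The deposited table holds log2 ratios made by the authors. It states no scale, and log2 was inferred because no value exceeded 12.04 in size. How the authors scanned, corrected and normalized the arrays is not given in the sources used here. Of the 1536 probes, 1457 had a gene name from the platform annotation.

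Spots of a probe with a value were averaged, and then the 2 dye orientations of each pair of extracts. Probes with a value in at least 50% of extract pairs were tested. In limma 3.58.1 (R 4.3.3), 37 extract pairs were fitted with 1 mean per group (21 coefficients, 16 residual degrees of freedom), so each direct comparison, with 1 pair, borrowed its spread from the groups with several. The joint estimate used 17 coefficients and 20 residual degrees of freedom. Benjamini-Hochberg adjustment ran over all probes or all contrasts tested, and a call means an adjusted p under 0.05. The fit was also run on simulated data with independent normal noise at the fitted spread of each probe. These held no dye effect and no spot-column trend, so they cannot show how the fit copes with either.

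The genes named are those called, or, with fewer than 5 calls in a direction, the 6 most extreme by the smaller value of the 2 arrays among those past 1.5-fold on both, the deleted and other SR-like genes, members of the textbook and decay lists, and the ends of the other lists. Values chosen outside this rule, among them most joint calls and the indirect ratios, are descriptions. The members, the lists and the order of probes were chosen with earlier results of these data known. Alternatives were single arrays, dye correction, a minimum of 3 spots, centred arrays, spot columns centred (added later), the spread without 1 pair, a test against a fold of 1.2, medians of spots, other variance settings, and the joint estimate with and without the direct arrays.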

Additional observations from a re-analysis of the deposited data

Results flagged for a closer look

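NAM7, the gene of Upf1, gave a ratio of npl3Δ over upf1Δ that differed between temperatures by 2.38 on the log2 scale (SE 0.42, limma), with 4.46 and 2.81 on the arrays at 37 °C and 2.01 and 0.49 on those at 30 °C. The limma test of the difference called it, but not with a trended, robust variance. The SE came from groups whose strains carry NAM7 in both channels, so it does not measure the spread of a ratio over background. NAM7 is deleted in upf1Δ and also set the direction of the ratios, so the ratio is taken over the background of each array, and its difference does not measure a change of NAM7 RNA. The SD among its 6 spots was 0.32 and 0.60 on the 37 °C arrays and 1.44 and 0.84 on the 30 °C arrays. In the double deletion over npl3Δ, which was hybridised on other arrays, NAM7 had -4.14 at 37 °C and -2.70 at 30 °C. The part of spot spread in the difference was not tested.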

How the results depend on the processing

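No paired analysis was possible because replicate numbers follow the order of the samples and each direct comparison has 1 extract pair. The count of called probes at 37 °C, 1, became 15 with the array with npl3Δ in Cy5 alone, 17 with the array with upf1Δ in Cy5 alone, 10 with that first array less the mean dye difference, 3 with medians of spots, 18 by the joint estimate, 4 by the joint estimate without the direct arrays, 5 without the third pair of npl3Δ over wild type at 30 °C and 2 with spot columns centred. Centring was chosen after seeing the data. NAM7 was among the calls at 37 °C in each of these settings. For the single arrays, only the direct pairs were cut to 1 array, and the spread still came from pairs averaged over both dyes. That spread leaves out the dye effect of a single array, so single-array calls may be too many and are descriptions. The 2 probes called at 30 °C became 27 and 55 on the single arrays, 23 and 99 on them after dye correction, 8, 22 and 18 with medians, the joint estimate and the joint estimate without the direct arrays, and 0 against a fold of 1.2. The 0 contrasts at 37 °C became 6 on the second array and 1 after dye correction. The 2 at 30 °C became 23 on the second array, 31 after dye correction, 1 with medians, 8 jointly, 4 with centring and 0 against the fold of 1.2. Between temperatures the 1 probe became 2 and 75 on the single arrays, with or without dye correction, 3 jointly and 0 with a trended, robust variance. The ribosomal contrast median at 37 °C, 0.28, was 0.154 on the second array, 0.162 after dye correction and 0.396 without the direct arrays. At 30 °C it was -0.02, but 0.153 on the first array, 0.162 after dye correction, 0.031 with centring, -0.318 jointly and -0.692 without the direct arrays. NPL3 at 30 °C was 0.046 on the dye-corrected second array. Without the direct arrays the 30 °C signs turned for HAC1 (-0.066), the second probe of RPS18B (-0.23), the first of HFM1 (0.32) and the contrasts of RPS11A (-0.96), RPS0B (-0.29), YOS1 (-0.19), RPL18B (-0.21) and RPS8A (0.30). The causes were not tested. Of 611 values for 47 named probes and contrasts, 542 kept their direction and their status as called or not called, 51 gained a call, 9 lost one and 9 turned. Most of the 47 were not called in the main fit, so keeping their status meant staying uncalled. Only NAM7 at 37 °C, the second probes of REC107 and IWR1 and the contrasts of IWR1 and RPL28 at 30 °C could lose a call. The losses were among REC107, IWR1 and RPL28. The number of arrays and their unknown signal limit the precision.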

Other observations

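Probes without a gene name, 79 of the 1536, held 5 of the 30 that were past 1.5-fold higher in npl3Δ than in upf1Δ on both arrays at 37 °C. They also held 3 of the 6 that the joint estimate called higher there. What these probes match is not given in the sources used here.

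Single-probe genes outside the lists were among the 22 lower at 37 °C. GAT1, a regulator of nitrogen use, had -0.67 and -1.10 at 37 °C and -0.40 and -0.58 at 30 °C, and RTG1, a regulator of signalling from mitochondria to the nucleus, had -0.87 and -0.83 at 37 °C and -0.88 and -0.38 at 30 °C. In the other direction ENA1, a sodium pump, had 0.96 and 0.91 at 37 °C against 0.14 and 0.34 at 30 °C. SNF11, of the SWI/SNF chromatin remodelling complex, had -0.93 and -0.54 at 37 °C, past 1.5-fold on 1 array, and -0.76 and -0.62 at 30 °C, past it on both. These 4 genes were named after their values had been seen.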
